A study of Mus musculus with 18 samples.

Results

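The imprinted growth network described here is a set of 10 mouse genes that are expressed mainly from 1 parental copy and act on growth. It was followed in the ileum, the far end of the small bowel, in suckling and in weaned mice. The 10 genes were Igf2, Dlk1, Igf2r, Grb10, Cdkn1c, Plagl1, Peg3, Ndn, Mest and Meg3. The list was drawn up by name, with earlier results of these data known. Each was represented by its probe set with the highest mean over 18 arrays, among probe sets annotated with a single gene symbol. All 10 were among the 8630 genes tested, out of 18193 genes with such a probe set. A gene was tested when its probe set reached a log2 level of 6 on at least 3 arrays. The older mice (days 24 and 32, 6 arrays) and the younger mice (days 4, 7, 9 and 11, 12 arrays) were untreated C57BL/6 animals as far as the labels say. Each age had 3 mice, each mouse gave 1 array, and the labels name no sex or litter. The pieces held every layer of the gut wall, so epithelium, connective tissue, muscle, nerve and vessels all contributed RNA. The labels give no day of weaning. Laboratory mice usually change to solid food in the gap between the day 11 and day 24 samples, so diet and age cannot be told apart.

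In an imprinted gene, DNA methylation marks set in the egg or sperm lead to expression mainly from 1 parental copy. The marked copy is not the silent one in every gene. Many imprinted genes are strongly expressed in the fetus and newborn and are turned down in most organs as growth slows. Among these genes, paternally expressed Igf2 and Dlk1 are generally regarded as promoting growth or holding back differentiation, while maternally expressed Igf2r, Grb10 and Cdkn1c restrain growth. The arrays measured total transcript and did not separate the parental copies.

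Promoter windows are shown because DNA methylation, the basis of imprinting, sits on the pair C followed by G (CpG). Methylation was not measured, and the windows are not said to be the sites that control imprinting. RefSeq (GRCm38.p6) gave 16 windows, each 250 bases before to 50 after a start site, for 9 of the 10 genes. Windows of 5 genes that encode different kinds of product follow, as 5′ to 3′ on the gene's own strand, with every CpG in capitals. They are Igf2 (growth factor; chr7:142657447-142657746, minus strand), Grb10 (adaptor; chr11:12037371-12037670, minus), Peg3 (zinc-finger protein; chr7:6730370-6730669, minus), Mest (hydrolase-like protein; chr6:30737800-30738099, plus) and Meg3 (non-coding RNA; chr12:109540746-109541045, plus).
Igf2: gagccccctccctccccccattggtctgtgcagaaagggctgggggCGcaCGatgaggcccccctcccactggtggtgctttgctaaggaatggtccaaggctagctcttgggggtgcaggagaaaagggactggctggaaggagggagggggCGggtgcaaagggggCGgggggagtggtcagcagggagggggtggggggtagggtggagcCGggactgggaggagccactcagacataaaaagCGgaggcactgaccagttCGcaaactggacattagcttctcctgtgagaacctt
Grb10: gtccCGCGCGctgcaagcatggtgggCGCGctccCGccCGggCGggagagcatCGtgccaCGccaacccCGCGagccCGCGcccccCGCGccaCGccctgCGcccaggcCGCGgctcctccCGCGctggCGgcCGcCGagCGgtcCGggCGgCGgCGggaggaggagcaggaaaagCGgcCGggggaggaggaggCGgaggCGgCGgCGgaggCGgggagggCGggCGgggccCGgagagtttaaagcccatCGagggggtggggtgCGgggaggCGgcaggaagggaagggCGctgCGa
Peg3: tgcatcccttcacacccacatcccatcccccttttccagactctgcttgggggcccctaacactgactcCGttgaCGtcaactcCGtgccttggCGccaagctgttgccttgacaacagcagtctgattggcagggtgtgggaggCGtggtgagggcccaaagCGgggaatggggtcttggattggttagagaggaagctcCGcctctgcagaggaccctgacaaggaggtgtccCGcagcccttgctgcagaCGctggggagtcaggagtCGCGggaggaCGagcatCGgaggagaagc
Mest: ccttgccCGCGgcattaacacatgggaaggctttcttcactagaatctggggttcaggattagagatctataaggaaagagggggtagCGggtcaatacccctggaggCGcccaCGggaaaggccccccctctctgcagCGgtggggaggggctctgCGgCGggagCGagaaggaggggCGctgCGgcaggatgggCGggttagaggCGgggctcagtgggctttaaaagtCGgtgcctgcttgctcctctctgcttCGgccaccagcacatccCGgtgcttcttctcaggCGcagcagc
Meg3: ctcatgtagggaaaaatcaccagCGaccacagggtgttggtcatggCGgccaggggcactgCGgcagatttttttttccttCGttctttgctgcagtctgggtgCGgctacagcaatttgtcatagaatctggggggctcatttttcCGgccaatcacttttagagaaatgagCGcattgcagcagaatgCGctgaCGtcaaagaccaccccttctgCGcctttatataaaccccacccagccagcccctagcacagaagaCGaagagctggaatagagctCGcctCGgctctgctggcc

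The windows differ widely in CpG content. Grb10 held 45 CpG pairs in 300 bases, Mest 17, Peg3 13, Meg3 13 and Igf2 7. The ratio of observed to expected CpG was 0.97 for Grb10 and 0.25 for Igf2, against a median of 0.384 over 32841 mouse promoter windows. Another Igf2 window, at chr7:142658755-142659054, held 24 CpG pairs (ratio 0.90). Another Grb10 window, at chr11:12027922-12028221, held 9 (ratio 0.45). A gene with several start sites thus had both kinds, and the contrast of Grb10 with Igf2 depends on the windows chosen. 4 short motifs were searched on both strands, and were chosen after the sequences had been read. GGGGCCCC was in the Peg3 window and in 1.08% of all windows. TGACGTCA, the cyclic AMP response element, was in the Peg3 and Meg3 windows and in 1.79% of all windows. CACGTG was in the Igf2r window and the Plagl1 window, and in 7.15% of all windows. TATAAA was found 2 times in the Meg3 window, once on each strand with overlapping letters, and 13.6% of all windows held it. CACGTG, TGACGTCA and GGGGCCCC read the same on both strands and did not overlap each other in these windows. A match describes letters, not a bound site, and each of the 4 motifs was in the windows of at most 2 of the 9 genes.

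Levels are RMA values on the log2 scale, so 1 unit is a factor of 2, and a level of 1 probe set cannot be set against that of another. The arrays had medians of 3.88 to 3.97, and a level near those could not be told from background. Arrays of the same age correlated at 0.983 or more across probe sets. Control probe sets moved with stage: the spiked poly-A controls averaged 5.53 ± 0.46 on the older arrays and 4.05 ± 0.26 on the younger ones (SD, n = 6 and 12). The 18S ribosomal probe sets averaged 9.04 ± 1.62 and 6.15 ± 0.89 on the same arrays. Hybridization controls split the arrays into a higher group, with 6 older and 4 younger arrays, and a lower group of 8 younger arrays. Xist, which is expressed in females, was high on 1 of 6 older and 9 of 12 younger arrays. The part of these differences in the results was not tested, but the stage difference is given below within the higher hybridization group and within the arrays with low Xist. Day 7 replicate 3 and day 9 replicate 2 carry the same mouse number in their titles. Their Xist levels were 4.69 and 9.74, so the 2 arrays were not of 1 mouse. Of the 10 ileum marker genes, all were tested and 6 were higher and 4 lower after weaning, among them the ileal bile acid binder Fabp6 at 13.07 on older and 7.03 on younger arrays.

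The first comparison set the older mice against the younger ones, which addresses the growth genes' state after and before weaning. All 10 genes were lower on days 24 and 32, by 2.45-fold (Ndn) to 18.8-fold (Igf2), and in each of them every older array lay below every younger array. Of all genes tested, 41.8% were called lower, and 21.7% had older arrays all below younger ones. Since the 10 were chosen with earlier results of these data known, these counts and the ranks below describe the set and do not test it. Dlk1 and Meg3 reached log2 6 on 13 arrays and Mest on 12, so these 3 genes passed the filter through the younger arrays, and all 10 were also called lower without the filter. The median difference was -2.93 over the 10 genes and -0.07 over all genes tested, and ranked from the largest fall, Igf2 stood 35th and Ndn 613th of 8630. In this full-thickness tissue, fewer cells of a type and less RNA per cell cannot be told apart. Within the higher hybridization group the 10 differences ran from -4.16 to -1.43, and among the 8 arrays with low Xist from -4.23 to -1.40.

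**Figure D1:**
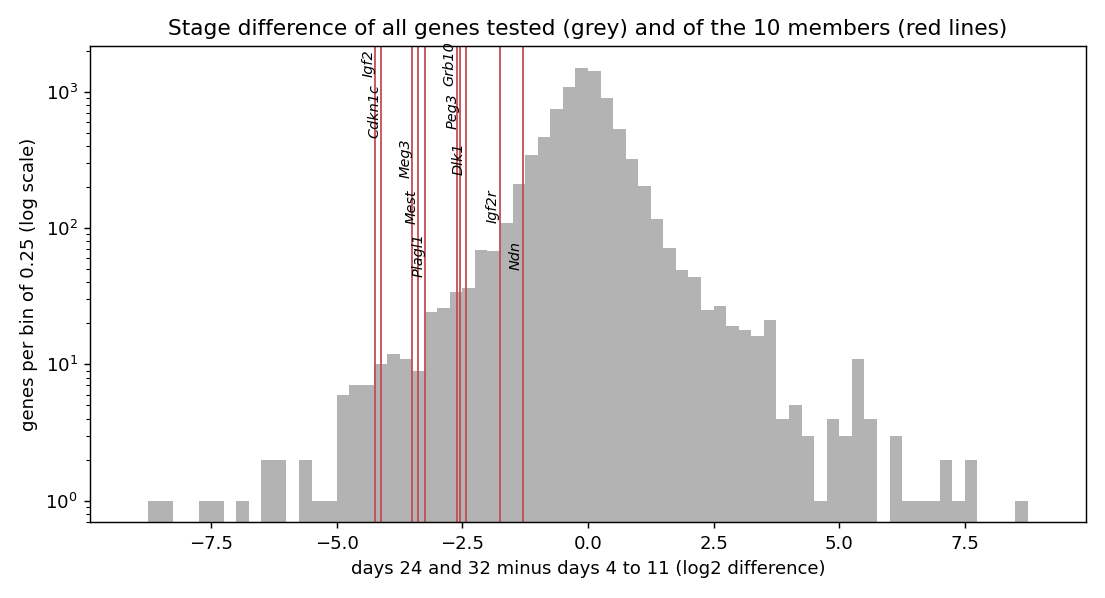
Stage difference (mean of days 24 and 32 minus mean of days 4 to 11, log2) of the 8630 genes tested, in bins of 0.25 on a logarithmic count axis, with the 10 imprinted genes as red lines. All 10 lie to the left of 0, from -4.23 (Igf2) to -1.29 (Ndn), in the thinly filled part of the distribution.

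**Figure D2:**
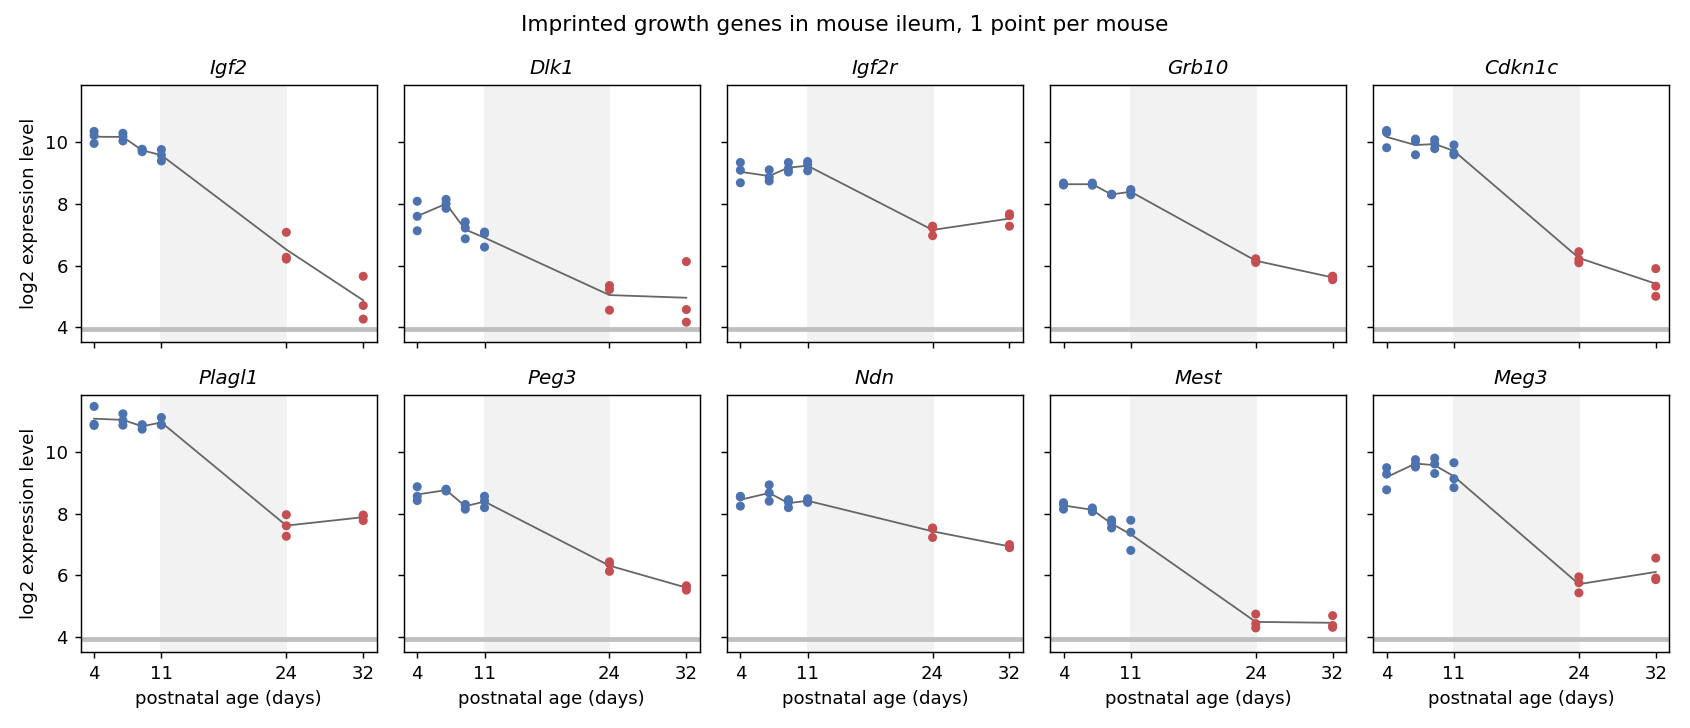
Log2 level of the 10 genes by postnatal age in days, 1 point per mouse, with lines through the age means, red for days 24 and 32 and blue for days 4 to 11. The shaded span is day 11 to day 24 and the grey band the range of array medians. In each gene the red points lie below all blue points. The lowest points of Dlk1 (4.16), Igf2 (4.26) and Mest (4.29) come closest to the band.

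The ligands come first. Igf2, on chromosome 7 (142650768 to 142666816, GRCm38.p6), encodes insulin-like growth factor 2, the main fetal growth factor of the family. Its level was 9.97, 10.23 and 10.36 on day 4, 10.19, 10.30 and 10.05 on day 7, 9.76, 9.70 and 9.78 on day 9 and 9.40, 9.59 and 9.77 on day 11. It was 7.08, 6.21 and 6.27 on day 24 and 4.26, 4.70 and 5.65 on day 32. All 3 mice of day 32 lay below all 3 of day 24, which in turn lay below every younger mouse. The stage difference was -4.23 ± 0.16 (SE, limma adjusted p = 5.17e-14), and the lowest day 32 value, 4.26, was close to the array medians.

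Dlk1 encodes a membrane protein related to the Notch ligands that can be shed as a soluble factor and keeps precursor cells of fat from maturing. It lies on chromosome 12 (109452485 to 109463336), 77.7 kb from Meg3 in the same imprinted cluster. Its levels were 7.13, 7.60 and 8.09 on day 4, 8.01, 8.15 and 7.86 on day 7, 7.22, 7.42 and 6.87 on day 9 and 6.60, 7.09 and 7.03 on day 11. They were 5.35, 5.22 and 4.55 on day 24 and 4.57, 4.16 and 6.13 on day 32. The 2 later ages overlapped, and 1 mouse of day 32 stood well above the rest, but no older mouse reached the lowest younger one at 6.60. Older mice differed by -2.43 ± 0.22, a 5.38-fold lower level (adjusted p = 1.67e-08).

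Igf2r encodes the receptor that takes up IGF2 for breakdown in lysosomes and also sorts lysosomal enzymes, and it is expressed in mice from the maternal copy. It lies on chromosome 17 (12682406 to 12769706). It had 8.69, 9.10 and 9.35 on day 4 and 9.08, 9.38 and 9.27 on day 11, and after weaning 7.28, 7.22 and 6.97 on day 24 and 7.28, 7.68 and 7.62 on day 32. The fit gave a stage difference of -1.75 ± 0.10 (3.37-fold, adjusted p = 1.63e-11). Days 4 and 11 overlapped, and the lowest day 32 mouse was level with the highest day 24 mouse at 7.28.

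Grb10 encodes an adaptor protein that binds the activated insulin and IGF1 receptors and dampens their signal. It lies on chromosome 11 (11930499 to 12037428). Its levels were 8.63, 8.62 and 8.68 on day 4, 8.61, 8.64 and 8.68 on day 7, 8.30, 8.31 and 8.32 on day 9 and 8.43, 8.47 and 8.30 on day 11. They were 6.15, 6.10 and 6.22 on day 24 and 5.54, 5.65 and 5.65 on day 32. Mice of the same age were close together throughout, with a pooled SD within ages of 0.06 after and 0.05 before weaning. The stage difference was -2.61 ± 0.05 (6.12-fold, adjusted p = 5.74e-18).

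Cdkn1c encodes p57, an inhibitor of cyclin-dependent kinases that takes cells out of the cell cycle during development. It lies on chromosome 7 (143458339 to 143461059), 792 kb from Igf2. It measured 9.83, 10.32 and 10.39 on day 4, 9.60, 9.66 and 9.92 on day 11, 6.09, 6.20 and 6.45 on day 24 and 5.00, 5.33 and 5.90 on day 32. The ages after weaning did not overlap each other and lay more than 3 log2 units below every younger mouse, a gap of 3.15. The fitted difference was -4.12 ± 0.12, or 17.3-fold (adjusted p = 1.64e-15). This growth inhibitor and the growth factor Igf2 were both among the 40 genes with the largest falls.

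The set holds 2 zinc-finger proteins. Plagl1, also known as Zac1, is a transcription factor that in mice regulates other imprinted genes; it lies on chromosome 10 (13090832 to 13131694). It had 11.49, 10.87 and 10.91 on day 4, 10.89, 11.13 and 10.89 on day 11, 7.97, 7.61 and 7.27 on day 24 and 7.78, 7.93 and 7.96 on day 32, and the last 2 ages overlapped. Its stage difference was -3.24 ± 0.11 (9.43-fold, adjusted p = 5.09e-15). Peg3, on chromosome 7 (6703892 to 6730462), encodes a large paternally expressed zinc-finger protein. It had 8.43, 8.88 and 8.57 on day 4, 8.57, 8.20 and 8.42 on day 11, 6.37, 6.13 and 6.44 on day 24 and 5.52, 5.66 and 5.62 on day 32, and each mouse of day 32 was below each of day 24. Its stage difference was -2.55 ± 0.08 (5.87-fold, adjusted p = 1.52e-15).

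Ndn encodes necdin, a protein of the MAGE family expressed strongly in neurons, and lies on chromosome 7 (62348277 to 62349928). It showed the smallest fall of the 10, with 7.52, 7.23 and 7.54 on day 24 and 6.90, 6.92 and 7.00 on day 32, against 8.25, 8.57 and 8.55 on day 4 and 8.49, 8.41 and 8.37 on day 11. All day 32 mice were below all day 24 mice. The stage difference was -1.29 ± 0.08 (2.45-fold, adjusted p = 9.17e-11). This probe set showed less of a difference than the gene's 4 other probe sets that passed the filter, which gave -1.95 to -1.56.

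Mest encodes an enzyme-like protein of the alpha/beta hydrolase fold, expressed in embryonic mesoderm, and lies on chromosome 6 (30733506 to 30748466). Its levels were 8.36, 8.15 and 8.30 on day 4, 8.19, 8.13 and 8.07 on day 7, 7.54, 7.70 and 7.80 on day 9 and 6.81, 7.79 and 7.40 on day 11. They were 4.74, 4.43 and 4.29 on day 24 and 4.37, 4.69 and 4.31 on day 32. The younger mice were spread over more than 1 log2 unit, from 6.81 to 8.36, while the older ones lay between 4.29 and 4.74 with the 2 ages overlapping. Between the stages Mest differed by -3.38 ± 0.11 (10.4-fold, adjusted p = 7.27e-15). Since the older levels were close to the array medians, the fold depends on the background correction, and Mest passed the filter through the 12 younger arrays alone.

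Meg3 is a long non-coding RNA expressed from the maternal copy of the cluster that carries Dlk1 on the paternal copy. It lies on chromosome 12 (109540996 to 109571729). Its levels were 8.78, 9.50 and 9.29 on day 4, 9.62, 9.76 and 9.52 on day 7, 9.81, 9.62 and 9.31 on day 9 and 9.66, 9.14 and 8.85 on day 11. They were 5.76, 5.43 and 5.95 on day 24 and 5.86, 5.91 and 6.56 on day 32. The younger ages overlapped, the older ages overlapped, and a gap of 2.22 separated the stages. Meg3 differed by -3.49 ± 0.14 between the stages (11.3-fold, adjusted p = 1.06e-13).

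The second comparison asked whether the genes were already falling during suckling. The least-squares slope over days 4, 7, 9 and 11 was called for 2 of the 10, both downward, where 1.78% of all genes tested were called downward. Mest fell by 0.14 ± 0.03 log2 units per day (adjusted p = 0.00479) and Grb10 fell by 0.04 ± 0.01 per day (adjusted p = 0.0418). The slope of Igf2 was -0.09 ± 0.04 (adjusted p = 0.159), and its day 11 mice all lay below its day 4 mice. The slope of Dlk1 was -0.12 ± 0.05 (adjusted p = 0.208), nearly as steep as that of Mest but with a larger error. Peg3 had -0.05 ± 0.02 (adjusted p = 0.119), Cdkn1c -0.06 ± 0.03 (adjusted p = 0.259), Plagl1 -0.03 ± 0.02 (adjusted p = 0.601) and Ndn -0.02 ± 0.02 (adjusted p = 0.706). Slopes were negative in 8 of 10, positive in Igf2r (0.03 ± 0.02, adjusted p = 0.433) and Meg3 (0.01 ± 0.03, adjusted p = 0.913), and 6 of the 10 had an unadjusted p below 0.05, as had 19.2% of all genes. The median slope was -0.05 per day for the 10 genes and 0.00 for all genes tested.

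The call for Grb10 lay near the threshold: it was lost in 13 of 18 omissions of a single array, with adjusted p up to 0.146 without day 4 replicate 3, and also without the filter (0.0614) and under quantile normalization (0.0526). That for Mest was kept in all 18 omissions, with adjusted p up to 0.0281. Within the 8 arrays of the lower hybridization group neither was called (Mest -0.11, adjusted p = 0.0803; Grb10 -0.05, adjusted p = 0.155), while Igf2 (-0.11, adjusted p = 0.0373) and Dlk1 (-0.17, adjusted p = 0.0391) were. When only the 12 younger arrays were fitted, 4 genes were called, with Igf2 (adjusted p = 0.0086) and Dlk1 (adjusted p = 0.0403) joining Mest and Grb10.

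Between the ends of the suckling ages, day 11 minus day 4, Mest was the single gene of the 10 called lower, at -0.94 ± 0.18 (adjusted p = 0.00977), against 1.54% of all genes. Igf2 measured -0.60 ± 0.26 (adjusted p = 0.228) and Dlk1 -0.70 ± 0.37 (adjusted p = 0.311). The other 7 were not called either, with Cdkn1c at -0.45, Grb10 at -0.24, Peg3 at -0.23, Plagl1 at -0.12, Ndn at -0.03, Meg3 at 0.03 and Igf2r at 0.19. The Mest call was lost when only the arrays of these 2 ages were fitted (adjusted p = 0.116). None of the 10 genes was called by limma in a single step between neighbouring suckling ages, where 0.0811%, 0.0463% and 0.0463% of all genes were. From day 7 to day 9, 5 of the 10 had an unadjusted p below 0.05 (Dlk1, Grb10, Peg3, Ndn and Mest, at -0.83 to -0.33), and 0 did in the other two steps. Of all genes, 2.41% had such a p from day 7 to day 9, 5.93% from day 4 to day 7 and 7.05% from day 9 to day 11. The 10 genes were measured on the same arrays and chosen with earlier results known, so these counts describe the set and do not test it. The lack of fit to a straight line was called for 0 of the 10 genes and for 0.0579% of all genes, with an unadjusted p of 0.00845 for Peg3 and 0.028 for Grb10, and 3.74% of all genes had one below 0.05.

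The interval from day 11 to day 24 held most of the fall. All 10 genes were lower on day 24 than on day 11, where 32.3% of all genes were, by 0.99 ± 0.13 (Ndn) to 3.50 ± 0.23 (Meg3) on the log2 scale. Cdkn1c was 11.2-fold, Meg3 11.3-fold, Plagl1 10.2-fold, Igf2 8.38-fold, Mest 7.18-fold and Grb10 4.74-fold lower, and Dlk1 3.64-fold (adjusted p = 0.000267, the largest of the 10). The higher hybridization group holds 1 day 11 array, so this interval has no replicate check on day 11 there, and its lone array is assumed to vary like the other ages. The value of Dlk1 was -1.56 in that fit (adjusted p = 0.0567). As a share of the change from day 4 to day 32, this interval held 57.7% for Igf2, 68.9% for Peg3, 73.0% for Cdkn1c and 74.6% for Mest. It held 114% for Meg3, 105% for Plagl1 and 137% for Igf2r, whose day 32 level was above that of day 24. Suckling held 24.7% of the change in Mest, 26.5% in Dlk1, 11.3% in Igf2 and 2.2% in Ndn.

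**Figure D3:**
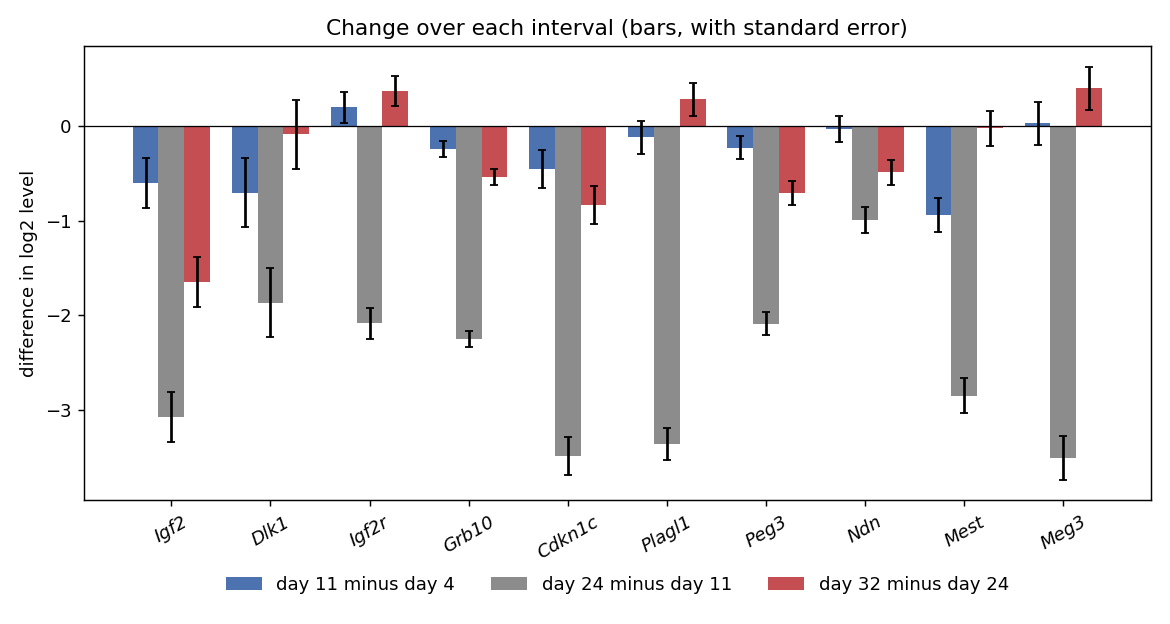
Difference in log2 level from day 4 to 11 (blue), day 11 to 24 (grey) and day 24 to 32 (red) for the 10 genes, as bars with the standard error from the limma fit. The grey bar of day 24 minus day 11 is the longest for every gene, from -3.50 (Meg3) to -0.99 (Ndn).

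After weaning, from day 24 to day 32, the genes went apart. Lower levels were called for 5 of the 10, where 6.22% of all genes were called lower. Igf2 fell by 1.65 ± 0.26 (3.14-fold, adjusted p = 0.00052), Cdkn1c by 0.83 ± 0.20 (1.78-fold, adjusted p = 0.0123), Peg3 by 0.71 ± 0.12 (1.64-fold, adjusted p = 0.00122), Grb10 by 0.54 ± 0.09 (1.45-fold, adjusted p = 0.000476) and Ndn by 0.49 ± 0.13 (1.41-fold, adjusted p = 0.0238). In each of these 5, all day 32 mice lay below all day 24 mice, as in 13.5% of all genes. The other 5 were not called: Dlk1 (-0.09 ± 0.37), Mest (-0.03 ± 0.18), Plagl1 (0.28 ± 0.17), Igf2r (0.37 ± 0.16, adjusted p = 0.148) and Meg3 (0.40 ± 0.23, adjusted p = 0.271). On day 24 Mest was already at 4.29 to 4.74 and Dlk1 at 4.55 to 5.35, with array medians of 3.88 to 3.97. The 18S ribosomal signal differed between these ages as well, at 7.01 to 7.96 on the day 32 arrays and 10.26 to 10.85 on the day 24 arrays, and its part in these differences was not tested. Of the 15 mesenchymal markers described below, 2 were lower and 1 higher on day 32. The calls for Igf2, Grb10 and Peg3 were kept in all 18 omissions of a single array. Cdkn1c lost its call in 3 of them (adjusted p = 0.0695 without day 32 replicate 1) and Ndn in 4 (adjusted p = 0.0927 without day 24 replicate 3). When limma fitted all probe sets, the other Peg3 probe set that passed the filter was not called (-0.69 ± 0.38, adjusted p = 0.322). Of the 5 passing Ndn probe sets, that at -0.33 ± 0.12 was not called (adjusted p = 0.12), and the others were, at -0.59 to -0.49.

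The per-day rates of the 3 intervals were then compared within the same fit. The rate from day 11 to day 24 was steeper than the suckling slope in 7 of the 10 (Igf2, Igf2r, Grb10, Cdkn1c, Plagl1, Peg3 and Meg3), where 16.9% of all genes were called this way. The difference was -0.28 ± 0.04 log2 units per day for Meg3 (adjusted p = 0.000102), -0.21 ± 0.04 for Cdkn1c (adjusted p = 0.000427) and -0.14 ± 0.05 for Igf2 (adjusted p = 0.0328). It was not called for Mest (-0.08 ± 0.03, adjusted p = 0.0792), Ndn (-0.06 ± 0.02, adjusted p = 0.0694) or Dlk1 (-0.03 ± 0.07, adjusted p = 0.794; 95% interval -0.17 to 0.11). The call for Igf2 was lost in 6 of 18 omissions of a single array, with adjusted p up to 0.109 without day 11 replicate 3, and with the hybridization group as a block (adjusted p = 0.116). Mest was called without day 11 replicate 1 (-0.13, adjusted p = 0.00352) and without day 24 replicate 1 (-0.09, adjusted p = 0.0473). Ndn was called without day 7 replicate 3 (adjusted p = 0.0382) and when its passing probe sets were averaged (-0.11, adjusted p = 0.000345).

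The slope after weaning was less steep than the rate from day 11 to day 24 in 7 genes (Igf2r, Grb10, Cdkn1c, Plagl1, Peg3, Mest and Meg3), against 17.3% of all genes called in this direction. It was not called in Igf2 (0.03 ± 0.05 per day, adjusted p = 0.669; 95% interval -0.07 to 0.13), whose rates were -0.21 after day 24 and -0.24 before it. Nor was it called in Dlk1 (0.13 ± 0.06, adjusted p = 0.128) or Ndn (0.02 ± 0.02, adjusted p = 0.671). The call for Peg3 (0.07 per day, adjusted p = 0.0201) was lost without day 24 replicate 2 (adjusted p = 0.116) and under quantile normalization (adjusted p = 0.0666), and Dlk1 was called without day 32 replicate 2 (0.18, adjusted p = 0.034). Set against the suckling slope, the slope after weaning differed for Mest alone, where it was higher by 0.13 ± 0.03 per day (adjusted p = 0.0346), while 1.65% of all genes were called higher. Mest had a slope of 0.00 ± 0.02 after weaning and -0.14 ± 0.03 during suckling. Its levels on both later ages, 4.29 to 4.74, lay near the array medians, where a further fall could not be measured, and this bears on both of its contrasts with the slope after weaning. The call against the suckling slope was lost in 6 of 18 omissions of a single array. For the other 9 genes this difference was not called, at -0.11 (Igf2), -0.05 (Cdkn1c), -0.05 (Ndn), -0.04 (Peg3), -0.02 (Grb10), 0.01 (Igf2r), 0.04 (Meg3), 0.06 (Plagl1) and 0.11 (Dlk1) per day. Leaving out day 32 replicate 3 gave a steeper slope after weaning than during suckling for Igf2 too (-0.16, adjusted p = 0.02), against -0.11 (adjusted p = 0.228) with all arrays.

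**Figure D4:**
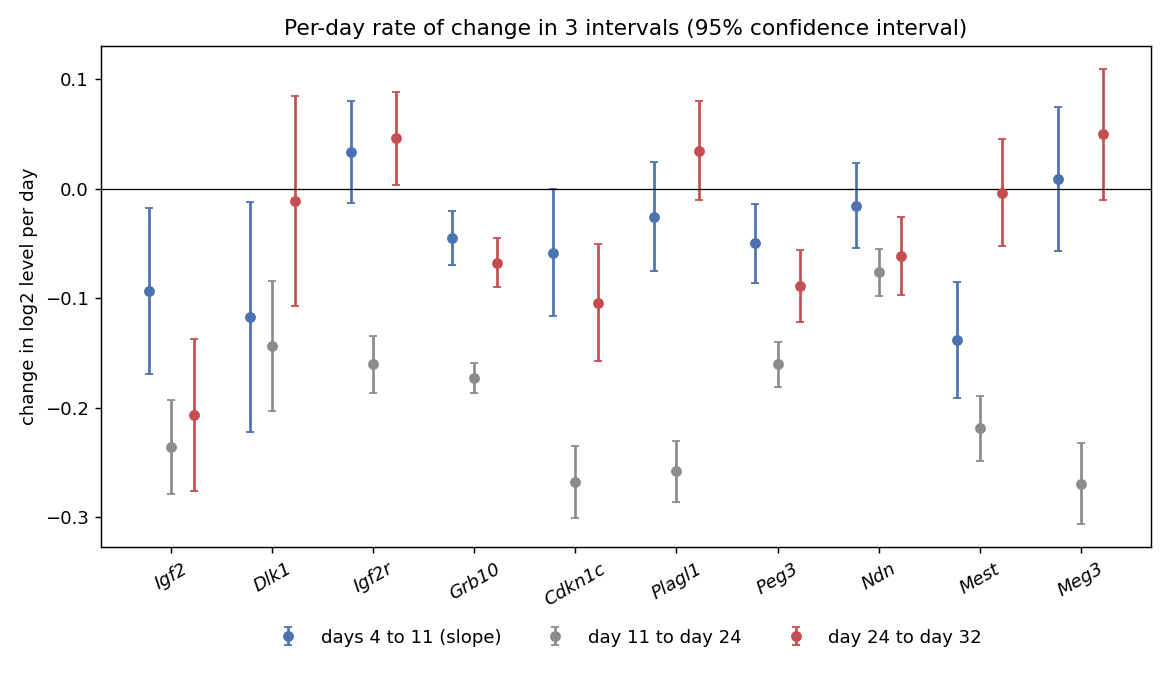
Change in log2 level per day for the 10 genes in the 3 intervals, with 95% confidence intervals from the limma fit. The grey points of day 11 to day 24 lie at -0.27 to -0.08, all below 0. Those of day 24 to day 32 lie on both sides of 0, with Igf2 lowest at -0.21.

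The 2 ligands varied more among mice of 1 age after weaning than before, with no test of the spread. The pooled SD within ages for Igf2 was 0.61 on days 24 and 32 and 0.15 on days 4 to 11, and for Dlk1 0.80 and 0.32. It was larger after weaning in 6 of the 10 genes. Day 32 replicate 3 was above the mean of its age for 9 of the 10, and day 32 replicate 1 for 0 of the 10. The mean level of 15 mesenchymal genes had the same order on day 32, at 8.49, 8.75 and 9.12 in replicates 1, 2 and 3, and its part in the spread was not tested. On day 24 the order was not the same: replicate 1 had the lowest mesenchymal mean, 8.81 against 9.13 and 8.93 in replicates 2 and 3, and was above its age mean for 8 of the 10 genes. Day 4 replicate 1 was above its age mean for 2 of the 10 genes and had the lowest mesenchymal mean of the younger arrays, 9.68. Day 7 replicate 3 and day 11 replicate 1 had the highest mesenchymal means of their ages, 10.07 and 10.10, and were above their age means for 3 and 4 of the 10.

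After the mean of each age was taken out, the genes did not vary as 1 block. Over the 45 pairs the correlation of these deviations across the 18 arrays ran from -0.56 (Mest and Meg3) to 0.77 (Igf2 and Dlk1), with a median of 0.17. The neighbours Dlk1 and Meg3 gave 0.40 and Igf2 and Cdkn1c gave 0.60. Points of 1 array share its RNA, hybridization and normalization, and these values are descriptions only.

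Several of the genes had more than 1 probe set. The 10 genes had 38 single-symbol probe sets, of which 20 passed the filter, and all 20 were lower after weaning when all probe sets were fitted. Among them, the Mest probe set, a Peg3 and a Meg3 probe set reached log2 6 on 12 arrays, with older means of 4.47, 5.06 and 3.17. A probe set that passed through the younger arrays alone was bound to be low on the older ones. The count of 20 therefore describes the probe sets and does not test them. Counted by gene, 41.8% of all genes tested were called lower, and the share over probe sets is not given here. The 5 of Meg3 gave stage differences from -3.49 to -1.77, and the 2 of Peg3 -3.03 and -2.55. In the suckling slope, 1 of the 20 was called, that of Mest (adjusted p = 0.0134 over all probe sets), and Grb10 had an adjusted p of 0.0737.

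Genes outside the set with the most similar profile were found by Pearson's r of log2 level over the 18 arrays, for Igf2 and for the 2 genes called in the suckling slope. For Igf2 they were Gng11, Agmat, Afp, Tmem37 and Alpi, with r of 0.989 to 0.990. For Grb10 they were Ttr, Acot1, Cstb, Slc18a1 and Aplnr (0.992 to 0.994), and for Mest they were Pyroxd2, Fga, Stard5, Ttr and Tceal8 (0.986 to 0.988). Afp, a fetal serum protein, was lower by 6.99 and Ttr, the carrier of thyroid hormone and retinol, by 6.09 log2 units after weaning. Such likeness is common in a series with a step between 2 stages: 381, 531 and 401 of 8620 other genes reached 0.95 with Igf2, Grb10 and Mest.

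Other imprinted genes went both ways. The counts in this and the following lists stand against 41.8% of all genes called lower and 31.1% called higher after weaning. A gene that passed the filter through the younger arrays alone was bound to be low on the older ones. Of 68 listed, 27 were tested, and 14 were lower and 7 higher after weaning, with a median of -0.29. Gatm, a creatine synthesis enzyme, measured 3.62 after and 7.53 before weaning, and Kcnq1ot1, the non-coding RNA of the imprinted cluster that holds Cdkn1c, measured 3.70 and 6.86. The older levels of both were below the array medians, so both were called lower but the size of their fall could not be measured. The proteolipid Nnat differed by -1.94 ± 0.07. Cobl, an actin nucleator, rose by 2.45 ± 0.07. Nnat was the single gene of this list called in the suckling slope (-0.10 ± 0.01 per day, adjusted p = 0.0015), and it fell again from day 24 to day 32 (-0.62, adjusted p = 0.0017). Ddc, which makes dopamine and serotonin, also fell over that last interval (-0.80, adjusted p = 0.0039).

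Partners of IGF signalling were mostly lower after weaning: 12 of 16 tested were lower and 2 higher, with a median of -0.76. The glypican Gpc3, which restrains growth, was 10.7-fold lower (-3.43 ± 0.15), the growth hormone receptor Ghr 4.68-fold (-2.23 ± 0.07), the IGF1 receptor Igf1r 4.45-fold (-2.15 ± 0.16) and the binding protein Igfbp3 3.54-fold (-1.83 ± 0.11). In suckling 0 of the 16 fell, and Pik3r1 (0.09 per day, adjusted p = 0.017) and Igfbp7 (0.08 per day, adjusted p = 0.042) rose. From day 24 to day 32 limma called 0 of these 16.

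Among 10 tested regulators of Igf2 RNA and of fetal growth genes, 7 were lower and 1 higher. Igf2bp3, an RNA-binding protein that binds Igf2 transcripts, was lower by 3.05 ± 0.15 and fell from day 24 to day 32 by 2.79 ± 0.24 (adjusted p = 5.2e-07). Sox4 rose over that last interval by 0.64 ± 0.19 (adjusted p = 0.0359). Plagl2, a relative of Plagl1, differed by -2.49 ± 0.06, Mycn by -2.29 ± 0.13 and Sox4 by -1.13 ± 0.12, all 3 being transcription factors. Other inhibitors of cyclin-dependent kinases did not follow Cdkn1c: 4 of 6 were higher after weaning, among them Cdkn2b (1.79 ± 0.06), Cdkn1a (1.65 ± 0.08) and Cdkn3 (1.11 ± 0.10), and 2 were lower, Cdkn2d by 0.65 ± 0.08. Cdkn3 fell during suckling (-0.09 per day, adjusted p = 0.0322). All 7 tested Notch ligands, receptors and relatives of Dlk1 were lower, including Notch3 (-1.65 ± 0.13) and Jag1 (-1.12 ± 0.08). The 2 tested MAGE relatives of Ndn were lower, Maged2 by 2.34 ± 0.10 and Maged1 by 1.35 ± 0.09. Of 8 tested genes that act on DNA methylation or on imprints, 5 were lower, a share to be read against the 41.8% of all genes. The DNA methyltransferase Dnmt3a differed by -1.93 ± 0.09, though its suckling slope was upward (0.08 per day, adjusted p = 0.028), and Tet2, which oxidises methylated cytosine, by -1.61 ± 0.12. Tet2 rose from day 24 to day 32 by 1.35 (adjusted p = 0.000249).

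Markers of the wall's tissues moved between the stages as well. All 15 tested mesenchymal and fibroblast markers were lower after weaning (median -1.18), and their mean level was 8.49 to 9.13 on older and 9.68 to 10.10 on younger arrays. The most reduced of them was Eln, elastin, at -1.72 ± 0.14, and 9 of the 10 imprinted genes, all but Ndn, had a larger fall than Eln. The value of Igf2r, -1.75 ± 0.10, lay within the error of Eln. The other Ndn probe sets that passed the filter gave -1.95 to -1.56, on both sides of Eln. In the suckling slope 0 of the 15 were called, with a median of 0.04 per day, the opposite sign to Mest and Grb10. All 5 tested endothelial markers and all 4 tested markers of enteric neurons and glia were lower as well. Their mean levels were 5.64 to 5.89 and 5.09 to 5.51 on older arrays, against 6.65 to 6.93 and 6.13 to 6.66 on younger ones. Both ranges on older arrays lay below the filter level of log2 6, so the filter favoured genes high on younger arrays. Among the listed genes left untested were Cdh5, Tek, Tie1, Elavl4 and Sox10, with highest levels of 5.66 to 5.91. These 2 counts are therefore no independent sign of a fall. Of the 10 smooth muscle markers 2 were higher and 2 lower, with a median of 0.02, and of the 12 epithelial markers 9 were higher and 3 lower. The part of cell composition in the falls was not tested.

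Markers of other tissues and of lymphocytes were also measured, and where their transcripts came from was not tested. The 3 tested adipocyte markers were higher after weaning, with Adipoq at 8.56 on older and 3.11 on younger arrays, and their mean was 7.81 to 9.67 on older and 3.57 to 6.85 on younger arrays. The younger Adipoq mean was below the array medians, so the size of its rise and of its suckling slope could not be measured. During suckling, where Mest and Grb10 fell, Car3 rose by 0.69 ± 0.06 and Adipoq by 0.26 ± 0.06 per day (adjusted p = 3.7e-06 and 0.0168). Of 3 tested hepatocyte markers, Ttr and Fga were lower and Tat was higher, while Alb, the defining one, had a highest level of 3.62, below the array medians. Fga averaged 2.60 on older arrays, also below the medians, so the size of its fall could not be measured. Ttr and Fga also fell during suckling, by 0.11 ± 0.02 per day each (adjusted p = 0.0105 and 0.0124), as did the pancreatic gene Cela1 by 0.22 (adjusted p = 0.00465). Clps, another pancreatic gene, was higher after weaning by 1.65 ± 0.08, while Cela1 was not called between the stages (-0.15 ± 0.18). The single tested skeletal muscle marker Acta1 was higher by 1.75 ± 0.18. Of 2 tested lymphocyte genes, the B cell gene Cd79b was higher by 1.47 ± 0.41 and Ptprc was not called (0.65 ± 0.30). The mean of these 2 overlapped between the stages, at 5.92 to 9.35 on older and 5.34 to 6.19 on younger arrays. The part of these tissues in the levels of the 10 genes was not tested.

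**Figure D5:**
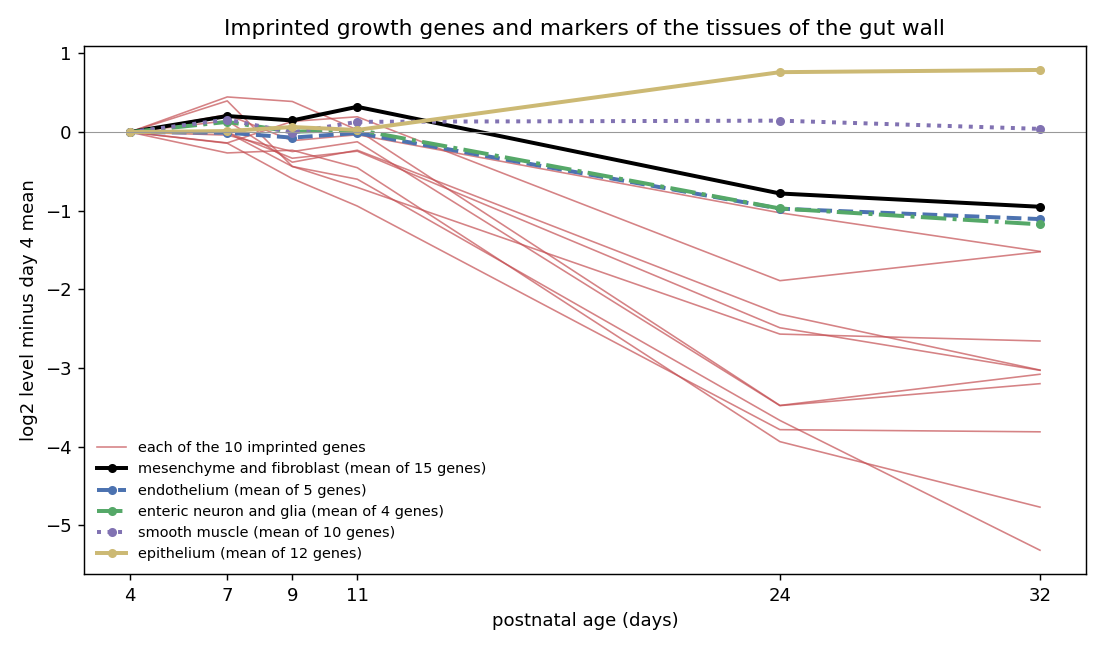
Log2 level minus the day 4 mean by postnatal age in days, for each of the 10 imprinted genes (thin red lines) and for the means of 5 marker lists (thick lines). On day 32 every red line lies below the mesenchymal, endothelial and neuronal means, and smooth muscle stays near 0. The thick lines are means and do not show single markers. In the stage difference Eln (-1.72), Pecam1 (-1.63) and Cldn5 (-1.55) fell more than Ndn (-1.29), while 9 of the 10 genes fell more than each of these markers. The part of cell composition was not tested.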

How the data were processed

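The authors deposited log2 expression levels. Per the submitters' processing notes these are RMA values; version, options, array model and genome build: not given in the sources used here. Per the labels' protocols, total RNA was reverse transcribed with an oligo-dT primer. RMA puts arrays on a common distribution, so a change in total RNA cannot be seen. The table held 45101 probe sets, 64 of them controls. Gene names came from the platform annotation (34945 probe sets with 1 symbol; 932 with several were left out).

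A gene was tested if its probe set reached log2 6 on at least 3 arrays. limma 3.58.1 in R 4.3.3 (lmFit, eBayes) fitted 1 mean per age over all 18 arrays, with 12 residual degrees of freedom. Stage difference, intervals and per-day rates are contrasts of these means, with Benjamini-Hochberg adjusted p-values over 8630 genes and a threshold of 0.05. Errors of differences are standard errors and those of levels standard deviations. The median residual SD was 0.176 over all genes and 0.238 over the 10 members; the number of arrays limits the precision. The fit was tested on simulated data. The mice are labelled as individuals.

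The text names all 10 members in the stage difference, the suckling slope, the intervals and the contrasts of rates. It also names the 5 genes most like Igf2 and each member with a called slope, and from each list up to 4 genes with the largest called stage difference and up to 2 in the slope and in day 32 minus day 24. Members, lists and tests were chosen with earlier results of these data known. Marker lists were used as measured values, without a test of the list. Promoter sequences came from RefSeq (GRCm38.p6), matched by symbol; Cdkn1c had no entry. Alternatives were other filters, averaging the probe sets of a gene, 3 scalings, other eBayes options, fewer arrays, Xist, the hybridization group and each array left out.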

Additional observations from a re-analysis of the deposited data

Results flagged for a closer look

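Mest differed between 2 periods of life under the same per-day contrast. Its slope after weaning (day 24 to day 32) minus its slope during suckling (days 4 to 11) was 0.13 ± 0.03 log2 units per day, by the contrast of both slopes in limma (adjusted p = 0.0346), and it was the single member of the 10 for which this difference was called. Its level was 4.29 to 4.74 on the 6 older arrays, with array medians of 3.88 to 3.97, where a further fall could not be measured. The call was lost in 6 of 18 omissions of a single array (adjusted p up to 0.0794, without day 4 replicate 3) and with the Xist level as a covariate (0.12, adjusted p = 0.0702).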

How the results depend on the processing

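The stage difference was called for all 10 members under every alternative run, and that of day 24 minus day 11 under every one but the higher hybridization group alone (9), which holds 1 day 11 array. No result of a member that was called in the full fit changed sign. The number of genes called in the stage difference was 10247 without the filter and 2865 with a filter at log2 8, which tests fewer genes. That filter gave 159 genes for the suckling slope, 121 for day 11 minus day 4, 2399 for day 24 minus day 11 and 577 for day 32 minus day 24. For the contrasts of rates it gave 1358 (weaning interval minus suckling), 175 (after weaning minus suckling) and 1336 (after weaning minus weaning interval). For the suckling slope, 1 member was called without the filter, under quantile or cyclic loess normalization and with the Xist covariate, and 4 with only the suckling arrays, where 477 genes were called. With the hybridization group as a block 484 genes were called for the slope and 484 for day 11 minus day 4. The lower hybridization group alone gave 61 genes for the slope, and 10 genes and 0 members for day 11 minus day 4. The higher group gave 17 genes and 0 members for day 11 minus day 4, and 350 genes and 3 members for day 32 minus day 24. Both counts of day 11 minus day 4 rest on an age with 1 array (day 4 in the lower group, day 11 in the higher one). The slope count of the lower group rests on the same day 4 array. The spread of such an age is taken from the other ages, so these counts say nothing about stability. With only the arrays of the ages compared, day 11 minus day 4 had 52 genes and 0 members, and day 32 minus day 24 had 443 genes and 3 members. After weaning minus suckling had 0 members with the Xist covariate. The causes were not tested.

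Leaving out 1 array at a time gave 6059 to 6344 genes and 10 to 10 members for the stage difference, 101 to 389 genes and 1 to 2 members for the slope, 85 to 330 genes and 1 to 1 members for day 11 minus day 4, 4660 to 5199 genes and 10 to 10 members for day 24 minus day 11, and 571 to 1193 genes and 3 to 5 members for day 32 minus day 24. The contrasts of rates ranged over 2056 to 2887 genes and 6 to 8 members (weaning interval minus suckling), 219 to 364 genes and 0 to 2 members (after weaning minus suckling), and 1837 to 2786 genes and 6 to 8 members (after weaning minus weaning interval). The lowest slope count was without day 4 replicate 2 and the lowest count for day 32 minus day 24 without day 32 replicate 2. Scaling moved the split of calls by over 10 points in 3 comparisons. Quantile normalization gave 453 higher and 757 lower for day 32 minus day 24 (527 and 537 as deposited) and 1243 and 1555 for after weaning minus weaning interval (1493 and 1164). Cyclic loess gave 171 and 120 for day 11 minus day 4 (116 and 133). No paired analysis was possible because the replicate numbers follow accession order. The labels link no mice across ages beyond 1 shared mouse number, on arrays that differ in Xist. There are no detection calls, so levels near the array medians (3.88 to 3.97) limit what a fold can show.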
